A study of Mus musculus with 31 samples.

Results

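Adenosine receptors and adenosine metabolism were represented by 8 genes of the 52636 in the deposited table, chosen by name: the receptor genes Adora1, Adora2a, Adora2b and Adora3, the genes of the enzymes CD73 (Nt5e), adenosine kinase (Adk) and adenosine deaminase (Ada), and the gene of the nucleoside transporter ENT1 (Slc29a1). All 8 had a row of their own, and all 8 passed the filter on low values in every comparison. The tissue was a frozen punch of the right caudate putamen (CPu), the dorsal striatum, from 31 female C57BL/6NTac mice that were 8 to 11 weeks old. WT mice and litter-matched Brd1+/- mice, heterozygous for a targeted deletion of the chromatin regulator gene Brd1, were given either vehicle (normal saline) or imipramine (IMN), a tricyclic antidepressant, at 10 mg/kg. The 4 groups were WT vehicle (n = 8), Brd1+/- vehicle (n = 7), WT IMN (n = 8) and Brd1+/- IMN (n = 8), each mouse giving 1 library. Every mouse, vehicle included, had been injected on consecutive days before a tail suspension test, an open field test and a forced swim test, and tissue was collected after the last of these, so the vehicle mice are injected and tested mice rather than untreated ones. The design asks whether Brd1 loss alters CPu transcription, and whether IMN does so in either genotype.

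Adenosine is released by cells or formed outside them from ATP, and it slows or enhances signalling through G protein-coupled receptors. The A1 receptor lowers cAMP and is found in many neurons, whereas the A2a receptor raises cAMP and in the striatum is concentrated in the striatopallidal neurons, the projection neurons that also carry the dopamine D2 receptor and the peptide enkephalin. CD73 makes the last step from AMP to adenosine at the cell surface, ENT1 lets adenosine cross the membrane along its gradient, and adenosine is removed inside cells by the kinase, which returns it to AMP, or by the deaminase, which turns it into inosine.

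The labels were checked against Brd1 itself, which lay between 14.6 and 26.9 TPM (transcript abundance scaled to transcript length and to the library total) in the 16 WT mice and between 11.1 and 16.0 TPM in the 15 Brd1+/- mice. The genotypes overlapped through WT IMN mouse 2, at 14.6 TPM, which lay below Brd1+/- vehicle mice 2, 3 and 7, while the next lowest WT mouse was at 17.4 TPM. The log2 difference was -0.71 under vehicle (limma adjusted p = 0.0556) and -0.60 under IMN (limma adjusted p = 0.0396). Punches were not alike in the levels of cell type markers. The mean log2(TPM + 1) of 10 striatal projection neuron markers was 3.76 to 9.18 in WT vehicle mice against 8.18 to 9.15 in the other 3 groups, and that of 10 cortical projection neuron markers was 5.56 to 6.45 in 6 of the 8 WT vehicle mice against at most 5.68 elsewhere. WT vehicle mouse 2 had the lowest striatal level, 3.76, and WT vehicle mouse 7, labelled female, had 26.8 TPM of 4 Y-linked genes against at most 0.188 TPM in any other mouse. The members' log2 differences against the WT vehicle group, and the counts of pathway genes, are therefore also given without these 2 mice. Lists of other cell types also moved with these groups. The mean level of 5 erythroid markers was 4.76 to 5.52 in WT vehicle and 4.30 to 5.26 in WT IMN mice, 5 of which lay below every WT vehicle mouse, and that of 8 meningeal fibroblast markers was 1.13 to 1.66 in WT vehicle and 1.51 to 2.33 in Brd1+/- vehicle mice. Their part in the results was not tested. In a tissue punch, fewer cells of a type and less RNA per cell cannot be told apart.

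Of the 8 genes Adora2a had the highest level, with a mean of 206 TPM over the 31 mice, which placed it at rank 402 of the 34905 genes above 0. Adora1 followed at 69.2 TPM, then Slc29a1 at 28.2, Adk at 23.5 and Nt5e at 15.7 TPM. Ada at 1.99, Adora2b at 1.83 and Adora3 at 0.610 TPM were low. Outside the WT vehicle group the lowest Adora2a value, 112 TPM, was above the highest Adora1 value, 94.2 TPM, whereas in WT vehicle mice their ranges overlapped. The ranges of Slc29a1, Adk and Nt5e overlapped one another, and so did those of Ada and Adora2b. Slc29a1 was nevertheless above Nt5e within every mouse, whereas the order of the other pairs in these sets changed between mice.

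**Figure D1:**
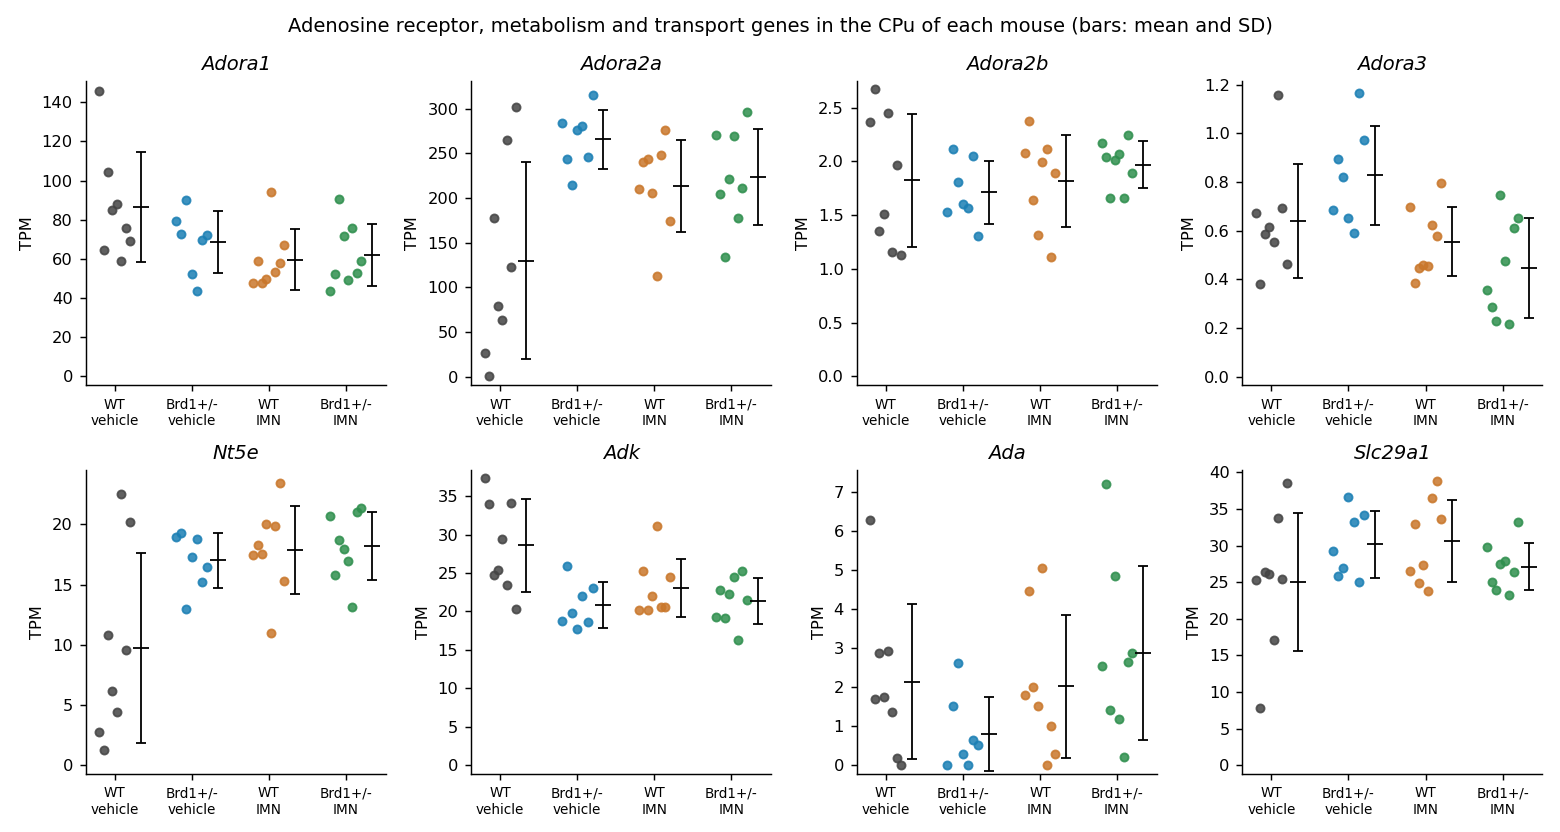
Level of each of the 8 genes in TPM (vertical axis, a scale of its own per gene) in every mouse of the 4 groups, 1 point per mouse, with the group mean and SD beside the points. WT vehicle mice spread from 1.02 to 302 TPM for Adora2a and from 1.27 to 22.5 TPM for Nt5e, while the other 3 groups lie close together.

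Promoter windows of 300 bases (250 before to 50 after a transcript start) were held for 7 of the 8 genes in the RefSeq table of build GRCm38.p6, with 16 entries in all. They were searched on both strands for the cAMP response element TGACGTCA, its shorter form TGACG (which the longer one contains), the GC box GGGCGG and the TATA box TATAAA. The longer cAMP element was in 0 of the 16 entries, against 1.79% of all 32851 promoters. TGACG was in 1 of the 2 Adk entries and 1 of the 8 Slc29a1 entries, against 20.8% of all promoters. The GC box was in the single entries of Nt5e, Adora2b and Ada, in both of Adk, in 1 of 2 of Adora1 and in 5 of 8 of Slc29a1, against 35.7% of all, and TATAAA was in 0 entries, against 13.6%. The sequence before the most upstream start is shown for 3 members: Adk and Adora1, each called at p under 0.01 in 1 comparison below, and Slc29a1, whose level followed that of Adora2a. The Nt5e window overlaps annotated exons and is not shown. They run 5′ to 3′ on the strand of the gene and leave out any annotated exon, and capitals mark the matches. The Adk stretch is chr14:21052509-21052573 on the plus strand, the Slc29a1 stretch chr17:45599619-45599868 on the minus strand, and the Adora1 stretch chr1:134235458-134235707 on the minus strand.
Adk: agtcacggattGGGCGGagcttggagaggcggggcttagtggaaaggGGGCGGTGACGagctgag
Slc29a1: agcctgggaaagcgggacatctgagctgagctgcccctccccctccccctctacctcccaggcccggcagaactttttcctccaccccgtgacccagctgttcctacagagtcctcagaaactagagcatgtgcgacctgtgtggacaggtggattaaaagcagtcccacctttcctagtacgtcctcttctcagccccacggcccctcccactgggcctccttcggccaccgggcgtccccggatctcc
Adora1: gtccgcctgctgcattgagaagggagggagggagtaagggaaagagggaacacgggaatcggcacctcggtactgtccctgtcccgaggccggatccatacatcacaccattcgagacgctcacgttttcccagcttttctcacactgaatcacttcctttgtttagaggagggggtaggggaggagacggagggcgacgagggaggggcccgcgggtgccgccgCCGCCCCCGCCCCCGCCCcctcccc
A match in letters is a description of the window and not a site shown to be used.

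Across the 5 comparisons no member passed a false discovery rate (FDR) of 5% in limma, the test that was fitted over all genes. The share of all genes past that FDR was 0% for genotype under vehicle, 0.00428% for genotype under IMN, 0.00424% for IMN in WT, 0% for IMN in Brd1+/- and 0% for the interaction of genotype and IMN. Brd1 itself, the deleted gene, missed that FDR under vehicle (limma adjusted p = 0.0556) and passed it under IMN (limma adjusted p = 0.0396). At the nominal p under 0.01 used in the study, 1 of 8 members passed for genotype under vehicle (Adk), against 13.6% of all genes tested. None of the 8 passed for genotype under IMN, also at p under 0.05, against 0.703% of all genes at p under 0.01 and 3.92% at p under 0.05. For IMN in WT mice 2 of 8 passed (Nt5e and Adora1), against 6.95% of all genes, and for IMN in Brd1+/- mice 1 of 8 (Adora3), against 1.83%. None passed for the interaction, where the background was 3.74%, and 3 members (Adora2a, Adora3 and Nt5e) had p under 0.05, against 16.2% of all genes. Both comparisons with WT vehicle mice share those 8 mice, and both with Brd1+/- vehicle mice share those 7. The lack of calls at FDR 5% depended on the setting. Under vehicle Adora2a, Nt5e and Adk passed with sample quality weights (adjusted p = 0.0229, 0.0071 and 0.0102) and with all 4 groups in one fit (0.0255, 0.0155 and 0.0146), and Nt5e and Adk passed without WT vehicle mouse 6 or mouse 8, the WT vehicle mice with the most Nt5e (0.0246 and 0.0259, then 0.0261 and 0.0118). Of all genes 29.5%, 19.5%, 19.9% and 23.8% passed FDR 5% in these 4 fits. For IMN in WT, Nt5e passed in these 4 fits (0.0124, 0.0262, 0.0472 and 0.0410), and Adora1 and Adk passed with the weights (0.0116 and 0.0317), where 20.6%, 9.02%, 5.03% and 10.5% of all genes passed. Nt5e also passed for the interaction with the weights (0.0195; 10.3% of all genes), and Adk under vehicle among genes with a mean of at least 1 TPM (0.0483; 10.5%). The members' median log2 difference was 0.06 under vehicle, 0.04 under IMN, -0.02 for IMN in WT and -0.05 for IMN in Brd1+/-, beside medians over all genes of -0.13, -0.03, -0.08 and 0.01.

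**Figure D2:**
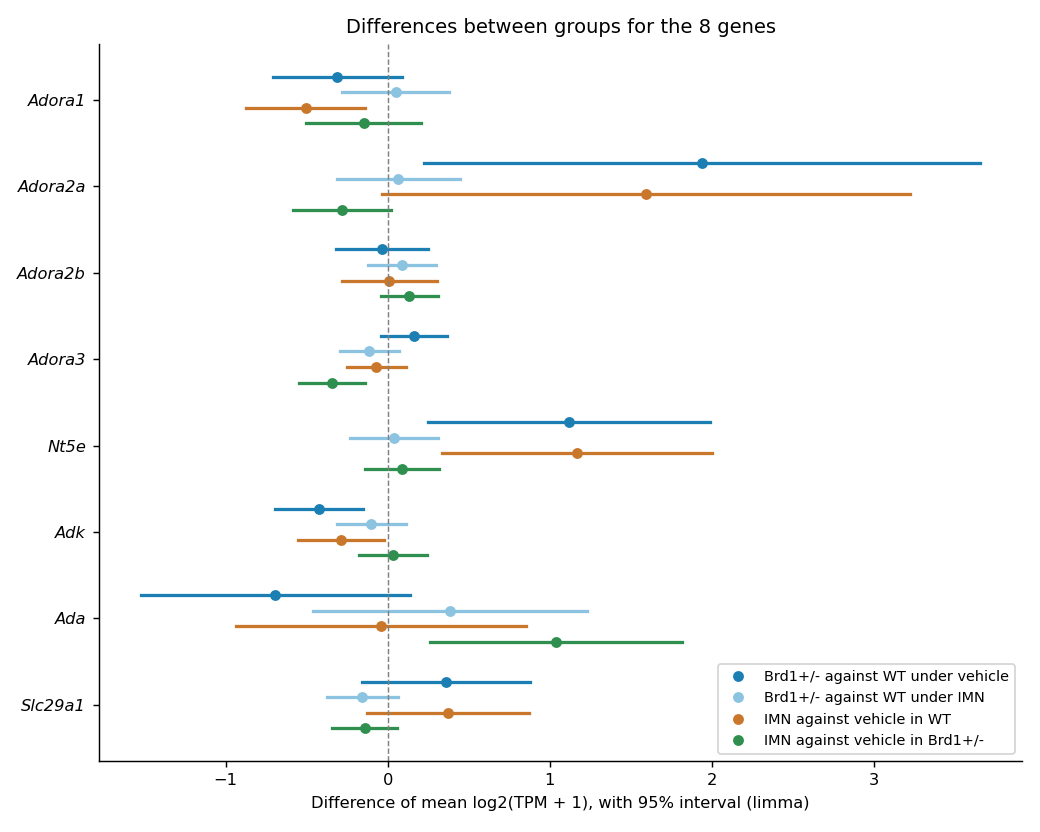
Difference of mean log2(TPM + 1) between groups (horizontal axis) for each gene, with its 95% interval from limma, for 4 comparisons in colour. The widest intervals are those of Adora2a against WT vehicle mice, and the intervals for Brd1+/- against WT under IMN all include 0.

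Adora2a (ENSMUSG00000020178, chr10:75316877-75334784, plus strand, GRCm38) encodes the A2a receptor. In WT vehicle mice 1 to 8 it was 26.2, 1.02, 178, 79.5, 63.0, 265, 123 and 302 TPM. In Brd1+/- vehicle mice the lowest value was 214, the median 276 and the highest 315 TPM. WT vehicle mice 6 and 8 lay within the Brd1+/- vehicle range, the other 6 lay below it, and the group means were 130 ± 110 (SD, n = 8) and 266 ± 33.2 TPM (SD, n = 7). WT IMN mice ran from 112 to 276 TPM with a median of 225, and Brd1+/- IMN mice from 134 to 296 TPM with a median of 216, so these groups overlapped each other and the Brd1+/- vehicle mice.

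The log2 difference of Adora2a between genotypes under vehicle was 1.94 (SE 0.81, limma adjusted p = 0.120; exact permutation p = 0.0154), and it was 0.07 (SE 0.18, adjusted p = 0.998) under IMN. IMN against vehicle gave 1.59 (SE 0.77, adjusted p = 0.224; exact permutation p = 0.0423) in WT and -0.28 (SE 0.14, adjusted p = 0.730; exact permutation p = 0.0890) in Brd1+/- mice. Without WT vehicle mice 2 and 7 the vehicle difference of Adora2a was 1.23 (adjusted p = 0.170), and without mouse 2 alone it was 1.22. The IMN difference of Adora2a in WT was 0.89 (adjusted p = 0.391) without both mice and 0.87 (adjusted p = 0.280) without mouse 2 alone. Adora2a moved with the level of striatal marker transcripts in the punch. Over the 31 mice its correlation with the striatal marker level was r = 0.992 and rho = 0.946 (permutation test, adjusted p = 0.0001 and 0.00016, the first being the smallest the permutations can give). That r was 0.966 without the 2 mice of most distant marker level and 0.938 within the 16 IMN mice. With the striatal marker level in the fit, the vehicle difference of Adora2a was -0.09 (adjusted p = 0.802) and the IMN difference in WT was -0.20 (adjusted p = 0.844). With the cortical marker level in its place the vehicle difference of Adora2a was 0.77 (adjusted p = 0.785).

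Set against another striatopallidal gene in the same mouse, Adora2a was nearly constant. Drd2, which encodes the D2 receptor, spanned 0.748 to 287 TPM in WT vehicle mice, and the ratio of Adora2a to Drd2 in TPM stayed between 0.719 and 1.37 over all 31 mice. Its group means were 1.03 ± 0.16 in WT vehicle, 0.98 ± 0.10 in Brd1+/- vehicle, 0.94 ± 0.09 in WT IMN and 0.96 ± 0.12 in Brd1+/- IMN mice (SD). WT vehicle mouse 2, with 1.02 TPM of Adora2a and 0.748 TPM of Drd2, had the highest ratio. On the log2(TPM + 1) scale the ratio differed by -0.03 between genotypes under vehicle, 0.03 under IMN, -0.09 for IMN in WT and -0.03 for IMN in Brd1+/-, with exact permutation p-values of 0.669, 0.758, 0.240 and 0.764, each adjusted to 0.764 over the 4 comparisons. The ratio differed by 0.027 under vehicle and -0.03 for IMN in WT when WT vehicle mice 2 and 7 were left out. Against Penk, the enkephalin precursor, the vehicle difference was 0.35 (exact permutation p = 0.696), and there WT vehicle mouse 2 had a ratio of 0.0067 where the median over all mice was 0.0916.

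**Figure D3:**
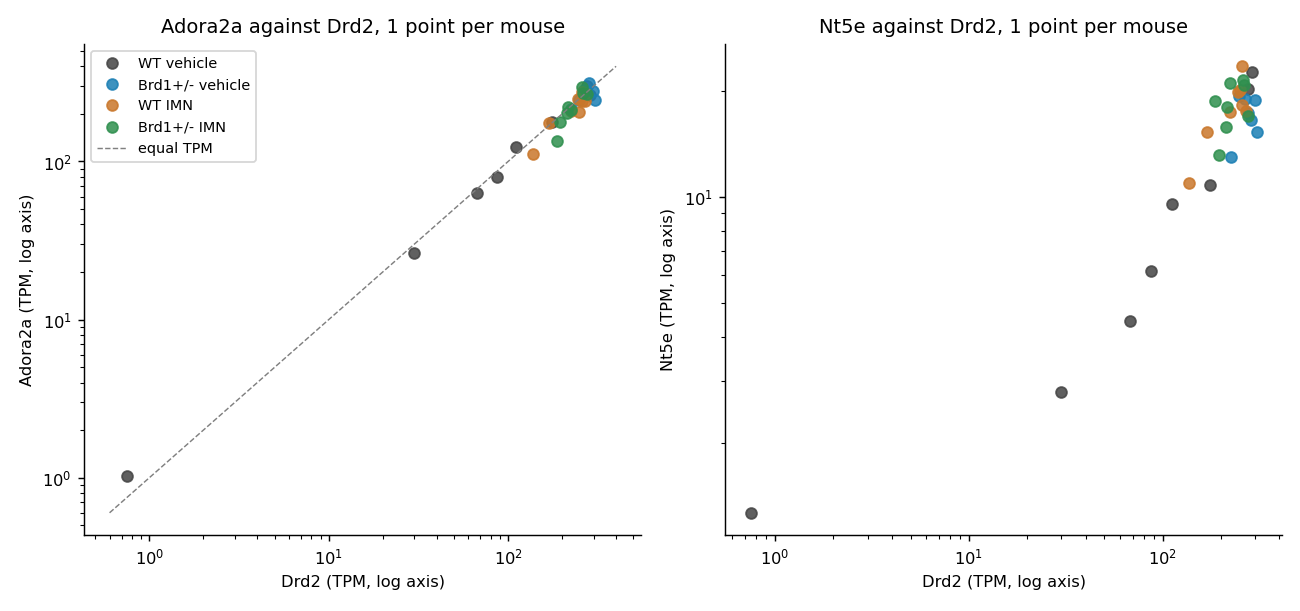
Adora2a (left) and Nt5e (right) against Drd2, all in TPM on log axes, 1 point per mouse, coloured by group; the dashed line marks equal TPM. Adora2a lies along that line in mice from 0.748 to 307 TPM of Drd2, while Nt5e in WT vehicle mouse 2 is at 1.27 TPM where Drd2 is at 0.748.

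Adora1 (ENSMUSG00000042429, chr1:134199223-134235431, minus strand) encodes the A1 receptor. In WT vehicle mice its lowest value was 58.7, its median 80.4 and its highest 146 TPM. In WT IMN mice these were 47.8, 55.5 and 94.2 TPM. The groups overlapped, with 5 of the 8 WT IMN mice below every WT vehicle mouse and WT IMN mouse 5, the highest of its group, above 6 of them. Brd1+/- vehicle mice had 68.6 ± 15.9 TPM (SD, n = 7) and Brd1+/- IMN mice 61.9 ± 16.0 TPM (SD, n = 8). IMN against vehicle in WT mice gave a log2 difference of -0.51 for Adora1 (SE 0.17, limma adjusted p = 0.143; exact permutation p = 0.0155), in a comparison where 5.6% of all genes were lower at p under 0.01. That call was narrow: it was lost in 12 of the 16 fits that left out 1 mouse, with values of -0.60 to -0.39. Median-of-ratios scaling gave -0.38 (adjusted p = 0.184) and the fit with the cortical marker level -0.28 (adjusted p = 0.701), both without the call. The Adora1 difference was -0.31 between genotypes under vehicle (adjusted p = 0.269), 0.05 under IMN (adjusted p = 0.998) and -0.15 for IMN in Brd1+/- mice (adjusted p = 0.907). Adora1 gave -0.39 (adjusted p = 0.264) under vehicle and -0.59 (adjusted p = 0.360) for IMN in WT without WT vehicle mice 2 and 7, the latter still past the nominal threshold. The exons of Adora1 overlap those of Mybph on the opposite strand, which averaged 0.0891 TPM, and whether reads were counted by strand is not given in the sources used here.

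The balance of the A2a and A1 transcripts reached lower values in WT vehicle mice than in the rest. The ratio of Adora2a to Adora1 in TPM ran from 0.0158 to 4.51 in WT vehicle mice, with a median of 1.28, and was under 1 in 4 of the 8. It ran from 2.38 to 6.46 in Brd1+/- vehicle, from 1.19 to 5.07 in WT IMN and from 1.48 to 6.19 in Brd1+/- IMN mice, with medians of 3.56, 4.25 and 3.96. Adora2a made up 48.9 ± 29.0% of the summed TPM of the 4 receptor genes in WT vehicle mice (SD, n = 8), 78.7 ± 5.3% in Brd1+/- vehicle (SD, n = 7), 76.5 ± 9.9% in WT IMN (SD, n = 8) and 76.7 ± 8.8% in Brd1+/- IMN mice (SD, n = 8).

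Adora2b and Adora3 were the scarce receptors. Adora2b (ENSMUSG00000018500, chr11:62248984-62266453, plus strand), which encodes the low-affinity A2b receptor, was 1.83 ± 0.62 TPM in WT vehicle, 1.71 ± 0.29 in Brd1+/- vehicle, 1.82 ± 0.43 in WT IMN and 1.97 ± 0.22 in Brd1+/- IMN mice (SD). The groups overlapped, with WT vehicle mice spread from 1.13 to 2.67 TPM. Its difference of greatest size among the 4 comparisons was 0.13 for IMN in Brd1+/- mice (95% interval -0.04 to 0.31, limma adjusted p = 0.788). The Adora2b difference was 0.049 under vehicle and 0.09 for IMN in WT without WT vehicle mice 2 and 7.

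Adora3 (ENSMUSG00000000562, chr3:105870858-105908926, plus strand), the A3 receptor gene, is carried in mouse brain mainly by microglia. In Brd1+/- vehicle mice 1 to 7 it was 0.685, 0.896, 0.821, 0.652, 0.591, 1.17 and 0.972 TPM. In Brd1+/- IMN mice 1 to 8 it was 0.356, 0.284, 0.228, 0.746, 0.473, 0.217, 0.611 and 0.650 TPM. The groups overlapped, with 5 of the 8 IMN mice below every vehicle mouse and 4 of the 7 vehicle mice above every IMN mouse. WT vehicle mice had 0.639 ± 0.233 and WT IMN mice 0.555 ± 0.143 TPM (SD, n = 8 each). IMN against vehicle in Brd1+/- mice gave a log2 difference of -0.34 for Adora3 (SE 0.10, limma adjusted p = 0.408; exact permutation p = 0.00482). Leaving out 1 mouse in turn gave -0.38 to -0.30, each past the nominal threshold. On the log2(TPM + 0.1) scale the difference of Adora3 was -0.83. With the striatal marker level in the fit it was -0.27 (adjusted p = 0.832) and the call was lost. In WT mice the IMN difference was -0.07 (adjusted p = 0.653), the genotype difference under vehicle was 0.16 (adjusted p = 0.267), and the interaction was -0.27 (adjusted p = 0.294). These Adora3 values were -0.10, 0.13 and -0.24 without WT vehicle mice 2 and 7. The mean level of 8 microglia markers was 4.92 to 5.25 in Brd1+/- vehicle and 4.87 to 5.15 in Brd1+/- IMN mice, with medians of 5.09 and 5.03. Over the 31 mice Adora3 gave r = 0.379 and rho = 0.363 with that level (permutation test, adjusted p = 0.0871 and 0.11). The part of that level in the result was not tested. Adora3 shares exons with Tmigd3 on the same strand, which averaged 0.0544 TPM, and the TPM values keep no number of reads behind such low levels.

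Nt5e (ENSMUSG00000032420, chr9:88327197-88372092, plus strand) encodes CD73. In WT vehicle mice 1 to 8 it was 2.80, 1.27, 10.8, 6.16, 4.44, 22.5, 9.55 and 20.2 TPM. In Brd1+/- vehicle mice the lowest, median and highest values were 13.0, 17.3 and 19.3 TPM, and in WT IMN mice they were 11.0, 17.9 and 23.4 TPM. WT vehicle mice 6 and 8 lay above every Brd1+/- vehicle mouse and the other 6 lay below every one, and the same 6 were below every WT IMN mouse. Brd1+/- IMN mice had 18.2 ± 2.9 TPM (SD, n = 8). The log2 difference of Nt5e was 1.12 between genotypes under vehicle (SE 0.41, limma adjusted p = 0.0876; exact permutation p = 0.0277) and 1.17 for IMN against vehicle in WT (SE 0.39, adjusted p = 0.141; exact permutation p = 0.0151). It was 0.04 between genotypes under IMN (adjusted p = 0.998) and 0.09 for IMN in Brd1+/- mice (adjusted p = 0.912), with an interaction of -1.08 (adjusted p = 0.263).

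The Nt5e call for IMN in WT mice was narrow too, being lost in 12 of the 16 fits that left out 1 mouse, with values of 0.90 to 1.39. Without WT vehicle mice 2 and 7 the Nt5e values were 0.87 (adjusted p = 0.191) under vehicle and 0.92 (adjusted p = 0.362) for IMN in WT, and the interaction was -0.83. Nt5e correlated with the striatal marker level at r = 0.946 and rho = 0.709 over the 31 mice (permutation test, adjusted p = 0.0001 and 0.0002), at r = 0.923 without the 2 mice of most distant marker level, and at r = 0.845 within the 16 IMN mice. Within groups r was 0.952 in WT vehicle, -0.162 in Brd1+/- vehicle, 0.962 in WT IMN and 0.604 in Brd1+/- IMN mice. With the striatal marker level in the fit the Nt5e differences were 0.15 under vehicle (adjusted p = 0.783) and 0.30 for IMN in WT (adjusted p = 0.844).

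Adk (ENSMUSG00000039197, chr14:21052574-21448569, plus strand) encodes adenosine kinase, which in the adult brain is found mainly in astrocytes. In WT vehicle mice 1 to 8 it was 37.4, 34.0, 24.8, 25.4, 29.4, 23.5, 34.1 and 20.3 TPM. In Brd1+/- vehicle mice the lowest value was 17.7, the median 19.7 and the highest 25.9 TPM. The groups overlapped, with 4 WT mice above every Brd1+/- mouse and 4 Brd1+/- mice below every WT mouse, and the direction was opposite to that of Adora2a and Nt5e. The log2 difference of Adk under vehicle was -0.42 (SE 0.13, limma adjusted p = 0.0586; exact permutation p = 0.00808), in a comparison in which 12.1% of all genes were lower at p under 0.01. Median-of-ratios scaling brought the median of all genes from -0.13 to 0.00, and the difference of Adk was then -0.24 (adjusted p = 0.146). Without WT vehicle mice 2 and 7 it was -0.34 (adjusted p = 0.177), and the call at p under 0.01 was lost there, under that scaling, under quantile scaling (-0.23), with either marker level in the fit, and without Brd1+/- vehicle mouse 4 (-0.39) or mouse 6 (-0.40).

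WT IMN mice had 23.0 ± 3.8 TPM of Adk and Brd1+/- IMN mice 21.4 ± 3.0 TPM (SD, n = 8 each). IMN against vehicle gave -0.29 for Adk in WT (limma adjusted p = 0.186) and 0.04 in Brd1+/- mice (adjusted p = 0.967), and genotype under IMN gave -0.10 (adjusted p = 0.998). The IMN difference of Adk in WT was -0.20 (adjusted p = 0.467) without WT vehicle mice 2 and 7. The level of 8 astrocyte markers correlated with Adk at r = 0.750 and rho = 0.713 over the 31 mice (permutation test, adjusted p = 0.0001 and 0.000267), at r = 0.696 without the 2 mice of most distant marker level, and at r = 0.845 within WT vehicle mice and 0.589, 0.759 and 0.720 within the other groups. The cortical marker level gave r = 0.760 with Adk, and the fit with that level gave -0.23 (adjusted p = 0.562) for genotype under vehicle. Adk and Nt5e, which remove and form adenosine, ran against each other in WT vehicle mice: the ratio of Adk to Nt5e was 1.01 to 26.7 there, with a median of 3.85, and 0.876 to 2.84 in the other mice.

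Ada (ENSMUSG00000017697, chr2:163726584-163750239, minus strand) encodes adenosine deaminase and was listed at 0 in 4 of the 31 mice. In Brd1+/- vehicle mice 1 to 7 it was 0, 1.53, 2.61, 0.302, 0, 0.659 and 0.524 TPM. In Brd1+/- IMN mice 1 to 8 it was 2.54, 7.20, 1.43, 4.85, 1.19, 0.203, 2.64 and 2.88 TPM. The groups overlapped, with 4 IMN mice above every vehicle mouse and 2 vehicle mice, both listed at 0, below every IMN mouse. WT vehicle mice ran from 0 to 6.27 TPM and WT IMN mice from 0 to 5.06 TPM. The log2 difference of Ada was 1.04 for IMN in Brd1+/- mice (SE 0.37, limma adjusted p = 0.565; exact permutation p = 0.0241), -0.69 between genotypes under vehicle (adjusted p = 0.236), 0.38 under IMN (adjusted p = 0.998) and -0.04 for IMN in WT (adjusted p = 0.964). The IMN difference of Ada in Brd1+/- mice was 2.09 on the log2(TPM + 0.1) scale, and it came under p of 0.01 with quality weights (1.14) or the cortical marker level (1.09) and in 4 of the 15 fits that left out 1 mouse (1.12 to 1.25). Leaving out WT vehicle mice 2 and 7 gave Ada -0.88 (adjusted p = 0.221) under vehicle and -0.23 (adjusted p = 0.831) for IMN in WT. Ada varied across mice with the level of 8 oligodendrocyte markers, at r = 0.721 and rho = 0.693 (permutation test, adjusted p = 0.00016 and 0.00032), r = 0.624 without the 2 mice of most distant marker level and r = 0.846 within the 16 IMN mice. That r was 0.345 within Brd1+/- vehicle and 0.886 within Brd1+/- IMN mice. Ada also varied with the level of 8 astrocyte markers, at r = 0.628 and rho = 0.592 (permutation test, adjusted p = 0.0011 and 0.00326). The oligodendrocyte markers spanned 6.35 to 7.81 in Brd1+/- vehicle and 6.17 to 8.72 in Brd1+/- IMN mice, and the part of either list in the difference was not tested.

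**Figure D4:**
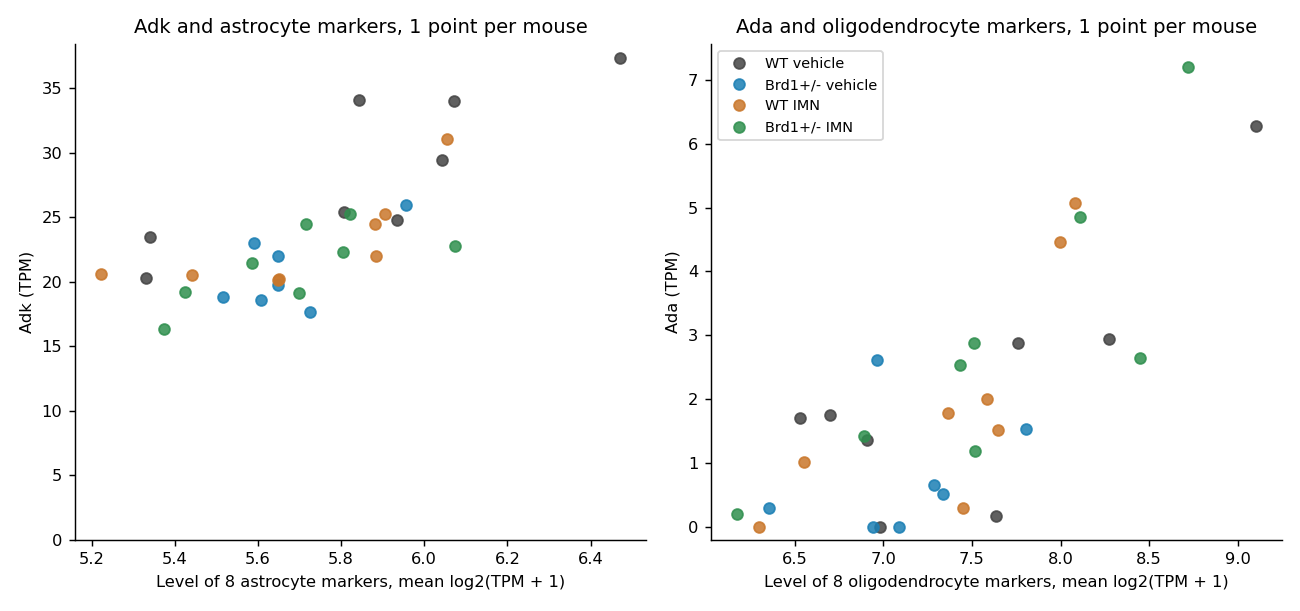
Adk against the mean log2(TPM + 1) of 8 astrocyte markers (left) and Ada against that of 8 oligodendrocyte markers (right), 1 point per mouse, coloured by group, with the gene in TPM on the vertical axis. The 2 highest Ada values, 7.20 and 6.27 TPM, belong to the 2 mice with the highest oligodendrocyte level, 8.72 and 9.11.

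Slc29a1 (ENSMUSG00000023942, chr17:45585200-45599606, minus strand) encodes ENT1. In WT vehicle mice 1 to 8 it was 25.3, 7.80, 26.3, 26.1, 17.0, 33.7, 25.4 and 38.5 TPM, and it was 30.2 ± 4.5 TPM in Brd1+/- vehicle (SD, n = 7), 30.6 ± 5.6 in WT IMN and 27.1 ± 3.3 in Brd1+/- IMN mice (SD, n = 8 each). WT vehicle mice 2 and 5 lay below every other mouse in the study. The difference of Slc29a1 was 0.36 between genotypes under vehicle (95% interval -0.16 to 0.88), -0.16 under IMN, 0.37 for IMN in WT and -0.14 for IMN in Brd1+/- mice, with limma adjusted p of 0.324, 0.998, 0.346 and 0.803. Without WT vehicle mouse 2 alone the vehicle and WT values of Slc29a1 were 0.15 and 0.17, and without mice 2 and 7 they were 0.14 and 0.15. It correlated with the striatal marker level at r = 0.841 and rho = 0.742 (permutation test, adjusted p = 0.000267 and 0.00016), and at r = 0.699 without the 2 mice of most distant marker level. Its exons overlap the antisense gene Gm17080, which averaged 1.47 TPM.

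Of the 8 genes, Adora2a, Nt5e and Slc29a1 had the strongest positive correlations with the striatal marker level over the 31 mice, given above. Adora3 was weakly positive, at r = 0.189 and rho = 0.231 (permutation test, adjusted p = 0.487 and 0.337). The others had negative correlations. Ada gave r = -0.251 and rho = -0.399 (permutation test, adjusted p = 0.323 and 0.0742). Adk gave r = -0.685 and rho = -0.563 (permutation test, adjusted p = 0.000267 and 0.00587), and r = -0.592 without the 2 mice of most distant marker level. Adora2b gave r = -0.488 and rho = -0.472 (permutation test, adjusted p = 0.0111 and 0.0303), and r = -0.309 without those mice. Adora1 gave r = -0.392 and rho = -0.509 (permutation test, adjusted p = 0.0737 and 0.0151), and r = -0.527 without them. With each group's mean taken out, r was -0.523 for Adk, -0.648 for Adora2b and -0.180 for Adora1. Within the Brd1+/- IMN mice the r of Adk was 0.355 and that of Adora2b 0.515, opposite in sign to the pooled values. Over the 31 mice log2(TPM + 1) of Adora2a correlated with that of Nt5e at r = 0.92 and of Slc29a1 at r = 0.86, and of Adk at r = -0.65. Within the 16 IMN mice these were 0.72, 0.60 and -0.28. Adora1 gave r = -0.37 with Adora2a, and -0.78 within the IMN mice. These coefficients come from the same libraries and punches and are given as a description.

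For each of the 7 members with a mean of at least 1 TPM, the genes most alike were taken by Pearson correlation over the 31 mice among 17391 genes. Those of Adora2a were Syndig1l (r = 0.995), Rgs9 (0.995), a signalling regulator of striatal neurons, and Cd4 (0.994). Those of Nt5e were Pcp4l1 (0.971), Penk (0.967) and Gm39043 (0.967), and those of Slc29a1 were Klhl2 (0.911), Bcl11b (0.890), a transcription factor of striatal projection neurons, and Rgs8 (0.884). Adk was most like Slc38a2 (0.923), an amino acid transporter, Zfp91 (0.898) and Nxpe3 (0.895). Ada was most like Rtkn2 (0.828), Rab37 (0.819) and Arrdc3 (0.818), Adora1 most like Eif3j1 (0.798), Fmn2 (0.778) and Ift122 (0.774), and Adora2b most like Pigz (0.718), Gm2694 (0.701) and Csf1 (0.654). With each group's mean taken out, the coefficients of these 21 genes lay between 0.65 and 0.99.

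Other genes of the pathway were taken from a list of 40, of which 31 or 32 were tested in each comparison. Under vehicle 0 of 31 were higher and 8 lower in Brd1+/- mice at p under 0.01, against 12.1% of all genes lower, and none of them passed FDR 5%, with a median log2 difference of -0.21 beside -0.13 for all genes. The 5 with the smallest p were the nucleotidases Nt5c3 (-0.66, SE 0.15, adjusted p = 0.0556) and Nt5c (-0.75, adjusted p = 0.0610), the purine salvage enzymes Hprt (-0.34, adjusted p = 0.0556) and Aprt (-0.63, adjusted p = 0.0583), and the adenylate kinase Ak4 (-0.94, adjusted p = 0.0613). Nt5c3 averaged 43.0 ± 11.2 TPM in WT vehicle and 26.0 ± 2.4 TPM in Brd1+/- vehicle mice (SD). By sublist, 2 of 12 genes listed under adenosine formation were lower (Nt5c3 and Nt5c). So were 4 of 13 listed under adenosine removal (Hprt, Aprt, Ak4 and Ampd2). Of 6 listed under adenosine and ATP transport 2 were lower (Slc29a2 and Panx2). These headings are broad, and the enzymes under them need not act on adenosine itself. The direction of the calls depended on the scaling: over all genes 342 were higher and 2811 lower, but median-of-ratios scaling gave 931 and 1207 and quantile scaling 1058 and 1153. Of the pathway genes 3 of 31 (Nt5c3, Nt5c and Ak4) were lower and 0 higher under either of those scalings, with medians of -0.016 and -0.012. Without WT vehicle mice 2 and 7, 2 of 31 were lower, Hprt (-0.27) and Nt5c3 (-0.56), and 0 higher, against 5.83% of all genes at p under 0.01 in either direction. Under IMN 0 of 31 genes passed in either direction, against 0.703% of all genes.

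For IMN in WT mice 3 of 32 pathway genes were lower, Ak1 (-0.54, SE 0.16), Hprt (-0.31, SE 0.09) and the channel gene Panx2 (-0.52, SE 0.16, adjusted p = 0.141 for each), against 5.6% of all genes lower, and 0 were higher. There 318 of all genes were higher and 1321 lower, against 674 and 734 with median-of-ratios scaling, under which 2 of 32 pathway genes (Ak1 and Panx2) were lower. Without WT vehicle mice 2 and 7, 0 of 31 passed, against 2.71% of all genes. In Brd1+/- mice 1 of 31 was higher with IMN, Xdh (0.43, adjusted p = 0.479), the enzyme that oxidises hypoxanthine to uric acid, against 0.869% of all genes higher, and 0 were lower, but with quantile scaling 0 of 31 passed. For the interaction 2 of 32 had a positive value at p under 0.01, against 2.97% of all genes, Nt5c (0.81, SE 0.25) and Nt5c3 (0.57, SE 0.19, adjusted p = 0.261 for both), and without WT vehicle mice 2 and 7 there were 0 of 32, against 1.62% of all genes in either direction. Over all genes the interaction had 753 positive and 198 negative calls, against 405 and 400 with median-of-ratios scaling, where the 2 pathway genes were the same. None of these passed FDR 5% in limma.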

How the data were processed

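CPu RNA of 31 mice was sequenced by the authors in single-end mode on a BGISEQ-500, trimmed with Trimmomatic, aligned to GRCm38 (Ensembl annotation) with HISAT2 2.1.0 and quantified with StringTie 1.3.4, per the study's methods and the submitters' processing notes. The authors deposited TPM, which divides by transcript length and by the library total, for 52636 genes, summing to 999787 to 999918 per mouse. TPM keeps no read number, so a mouse's depth cannot be read from the file (the study's methods state only a minimum number of reads for every sample), and precision rests on the spread between mice. All columns belonged to a labelled mouse (0 were unused). Symbols came from GENCODE M21 and matched 52403 identifiers.

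The study's own test needs read counts, so log2(TPM + 1) was fitted with limma 3.58.1 in R 4.3.3 (two-sided, trended prior) for genes with more than 0.1 TPM in 7 or more mice of the fit, each pair of groups on its own and the interaction on all 31. Thresholds were p under 0.01 and an FDR of 5%, the study's own. Limma's p-values are printed after Benjamini-Hochberg adjustment over all genes tested, beside exact permutation p-values of log2(TPM + 1). Without a pseudocount of 1 the fold of low genes would be larger. Python 3.11 with scipy gave the exact and 100000-resample permutation tests, the latter over 80 gene and marker list pairs. The fit was tested on simulated data.

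The members, pathway genes and marker lists were chosen with earlier results of these data known. Named genes were all members, up to 5 pathway genes per comparison at p under 0.01, and 3 alike genes per member. Alternatives were another pseudocount, filter, scaling or weighting, marker levels as covariates, the mouse number as a block, and leaving out mice. Leaving out WT vehicle mice 2 and 7 was chosen after seeing the data. Of the other marker lists (endothelial, choroid plexus, meningeal and erythroid) only the levels of the last 2 are used, and none of their correlations with a member. Promoters came from the RefSeq table of GRCm38.p6.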

Additional observations from a re-analysis of the deposited data

Results flagged for a closer look

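In 36 sets of values (the 8 genes and the ratio of Adora2a to Drd2, each in 4 groups), 4 values, from 3 mice, stood apart from the rest of their group by more than the 95% limit of Dixon's test, which chance alone passes in about 1 set in 20. WT IMN mouse 5 had 94.2 TPM of Adora1 and 31.1 TPM of Adk, the highest of its group for both, and its cortical marker level of 5.68 was also the highest of its group. WT vehicle mouse 6 had 1.16 TPM of Adora3. WT vehicle mouse 1 had 6.27 TPM of Ada and the highest oligodendrocyte marker level of the study, 9.11.

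The effect of IMN differed between genotypes at p under 0.05 in limma's interaction term for Adora2a (log2 difference of -1.88), Nt5e (-1.08) and Adora3 (-0.27), of 8 genes tested, against 16.2% of all genes at that threshold. None passed after adjustment over all genes, with adjusted p of 0.282, 0.263 and 0.294 in that order. With the striatal marker level in the fit the Adora2a, Nt5e and Adora3 interactions were 0.15, -0.11 and -0.18 (adjusted p = 0.9996 for each), with the cortical level they were -1.14, -0.57 and -0.27, and without WT vehicle mice 2 and 7 the Adora2a, Nt5e and Adora3 interactions were -1.17, -0.83 and -0.24.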

How the results depend on the processing

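The number of members with p under 0.01 moved with the setting. For genotype under vehicle (1 of 8) it was 0 under median-of-ratios scaling, with the cortical or the striatal marker level as covariate and without WT vehicle mice 2 and 7, 2 with the replicate block, and 3 with sample quality weights or all 4 groups in one fit. Of all genes 9.22%, 2.35%, 1.34% and 5.83% passed in the settings with 0, in that order, against 13.6% in the main fit. With quantile scaling (9.53% of all genes) the member count stayed at 1, but the gene was Nt5e (1.32) in place of Adk. For IMN in WT (2 of 8) it was 1 with a pseudocount of 0.1, a mean of at least 1 TPM, median-of-ratios or quantile scaling, no trend, the replicate block, or without WT vehicle mice 2 and 7, 0 with no filter or either marker level, and 3 with quality weights. Of all genes 6.65%, 8.14%, 5.97%, 5.8%, 6.83%, 5.08% and 2.71% passed in the settings with 1, in that order. With no filter, the cortical level or the striatal level 5.01%, 1.7% and 1.23% passed, against 6.95% in the main fit. For IMN in Brd1+/- (1 of 8) it was 0 with a mean of at least 1 TPM (2.01% of all genes), which leaves Adora3 out, or the striatal level (1.32%), and 2 with quality weights, the replicate block or the cortical level. The gene gained was Ada with the weights and the cortical level, and Adora2a with the block. The interaction (0 of 8) had 2 with quality weights. Shares of all genes at p under 0.01 moved too: with quality weights they were 20.3% for IMN in WT, 13.6% for the interaction and 2.07% for IMN in Brd1+/-, and for the last 2.15% with the block and 2.22% with the cortical level. Genotype under IMN stayed at 0 of 8 in the 12 settings and 16 left-out mice tried. Leaving out 1 mouse in turn gave 0 to 2 for genotype under vehicle, 0 to 3 for IMN in WT, 1 to 2 for IMN in Brd1+/- and 0 to 2 for the interaction. The shares of all genes at p under 0.01 in those fits were 8.89% to 22.4%, 3.88% to 15.3%, 1.34% to 2.18% and 2.16% to 10.2%, in that order. The settings with the most calls, quality weights and all 4 groups in one fit, also called more of all genes under vehicle, 26.5% and 19.7%.

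Signs turned where differences were small or a marker level entered. With the striatal level, under vehicle Adora2a was -0.089, Adora2b 0.20 and Slc29a1 -0.18, for IMN in WT Adora2a was -0.20, Ada 0.30 and Slc29a1 -0.10, for IMN in Brd1+/- Adora2a was 0.022 and Slc29a1 0.014, and for the interaction Adora2a was 0.15, Adora2b -0.11 and Slc29a1 0.029. With the cortical level Adora2b was 0.18 under vehicle and -0.035 for the interaction, and Ada was 0.28 for IMN in WT. Median-of-ratios scaling gave Adora2b 0.093 under vehicle and Ada 0.049 for IMN in WT; quantile scaling gave 0.11, 0.052 and, for the Adora2b interaction, -0.0016. Quality weights gave -0.0087 for Nt5e under IMN and -0.0077 for Adora2b for IMN in WT, and Adora2b was 0.049 under vehicle without WT vehicle mice 2 and 7. The Adora2a to Drd2 ratio was 0.027 under vehicle without those mice. Relative to Penk in place of Drd2, Adora2a was 0.35 under vehicle and 0.16 for IMN in WT. The cause of these shifts was not tested. With 1 mouse left out, Adora2b spanned -0.089 to 0.023 under vehicle and -0.044 to 0.068 for IMN in WT, Adora1 -0.034 to 0.15, Adora2a -0.060 to 0.16 and Nt5e -0.051 to 0.10 under IMN, Ada -0.24 to 0.17 for IMN in WT and Adk -0.00037 to 0.087 for IMN in Brd1+/-, while the Adora2a to Drd2 ratio spanned -0.064 to 0.013 under vehicle, -0.0090 to 0.086 under IMN and -0.075 to 0.030 for IMN in Brd1+/-. Of the single-gene values, 428 with another setting and 686 with 1 mouse left out kept their direction and side of 0.01, 21 and 26 lost the call, 12 and 10 gained it, and 22 and 22 changed sign.

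Mouse numbers recur in each group, but deviations of same-numbered mice did not run together, with 0 of 7 pairs over a correlation of 0.1 under vehicle and 2 of 8, 2 of 8 and 3 of 7 in the other comparisons. With the replicate block, where mouse 8 has no partner among Brd1+/- vehicle mice and adds nothing, the share of all genes at p under 0.01 under vehicle was 17.7%, 15.4% passed FDR 5%, and the adjusted p of Adk was 0.0244, and 0 to 2 mice per comparison correlated best with their own number. The deposited TPM give no read numbers, which limits what can be said of Adora3, Adora2b and Ada.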

Other observations

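The ratio of Nt5e to Drd2 within a mouse was not as even as that of Adora2a to Drd2. This ratio was chosen after its values were seen. In TPM it was 0.0497 to 0.0778 in Brd1+/- vehicle mice, 0.0615 to 0.1003 in Brd1+/- IMN mice and 0.0651 to 0.0912 in WT IMN mice, and in WT vehicle mice it was 0.0613 to 1.70, the highest being mouse 2 with Drd2 at 0.748 TPM. On the log2(TPM + 1) scale it differed by -0.86 between genotypes under vehicle, 0.00073 under IMN, -0.51 for IMN in WT and 0.34 for IMN in Brd1+/- mice. Against Penk in place of Drd2 these differences were -0.47, -0.0086, -0.26 and 0.20. Without WT vehicle mice 2 and 7 the vehicle and WT differences were -0.34 and 0.0038 relative to Drd2 and -0.37 and -0.17 relative to Penk, and without mouse 2 alone those relative to Drd2 were -0.36 and -0.022. No test of these values is given because the same values led to the choice of the ratio.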
